A study of Mus musculus with 14 samples.

Results

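The 3 windows of 1 Mb described here are the autosomal windows with the largest share of their length under H3K27me3 sites. They lie at chr5:35000001-36000000, chr15:78000001-79000000 and chr2:165000001-166000000 of the mouse assembly GRCm38. They were chosen by the length that the sites cover, so this length is given as a description without a test. A site belongs to a window when its start lies in it. By this rule 144 sites were in the chromosome 5 window, 144 in the chromosome 15 window and 163 in the chromosome 2 window, together 451 of the 153983 sites listed. The spans of 56 protein-coding genes overlap the windows, and 55 of these genes have their 5′ end inside.

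H3K27me3, trimethylation of lysine 27 on histone H3, is set by EZH enzymes in Polycomb repressive complex 2 and is known from genes that are kept silent. It often starts at CpG-rich promoters of developmental regulators, which carry little DNA methylation, and can spread from there over gene bodies and the sequence between genes. Genes in active transcription usually carry other marks, among them H3K4me3 at the promoter, which is set by KMT2 complexes.

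The cells were iMEF, immortalised mouse embryo fibroblasts. Exon 4 of both endogenous Ash2l alleles had been deleted, and the cells lived on FKBP-HA2-ASH2L, a tagged human ASH2L brought in by a lentivirus, which all groups shared. ASH2L is a subunit of the KMT2 complexes, and dTAG-13 is a PROTAC that directs the tagged protein to degradation. The H3K27me3 ChIP-seq experiment asked how the mark responds when ASH2L is lost. It comprised 12 libraries in 6 groups of 2, namely control cells without dTAG and cells exposed to dTAG for 30 min, 2 h, 4 h, 8 h and 16 h, beside 2 input libraries from control cells and from cells exposed for 16 h. The ChIP-seq cells were of the clone NG3. The libraries thus come from 1 clone. The deposited list gives the position of each site over all samples, without a read count, a score or a library. Therefore control and treated cells were not compared here, no value has a replicate error, and the depth behind a site is unknown. A position without a site was not called in this list, which does not show that the mark was absent.

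CpG-rich promoters occurred on both sides of the pattern in each window. To show this, the 250 bp before the 5′ end are printed for the CpG-rich promoter under the longest covering site on chromosomes 15 and 2, and for the CpG-rich promoter farthest from any site in each window. For Ncoa3 the stretch is 118 bp, as it ends at another annotated exon. The sequences were taken from the RefSeq FASTA of GRCm38.p6 and run 5′ to 3′ in the direction of the gene. Capitals mark CpG dinucleotides.
Afap1 (5′ end free, chr5:35893069-35893318, plus strand): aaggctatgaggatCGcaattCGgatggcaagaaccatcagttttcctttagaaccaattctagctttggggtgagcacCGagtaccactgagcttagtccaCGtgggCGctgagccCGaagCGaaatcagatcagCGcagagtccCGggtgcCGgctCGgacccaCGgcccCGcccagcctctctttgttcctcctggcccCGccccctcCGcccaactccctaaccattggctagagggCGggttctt
Elfn2 (5′ end in a site, chr15:78718772-78719021, minus strand): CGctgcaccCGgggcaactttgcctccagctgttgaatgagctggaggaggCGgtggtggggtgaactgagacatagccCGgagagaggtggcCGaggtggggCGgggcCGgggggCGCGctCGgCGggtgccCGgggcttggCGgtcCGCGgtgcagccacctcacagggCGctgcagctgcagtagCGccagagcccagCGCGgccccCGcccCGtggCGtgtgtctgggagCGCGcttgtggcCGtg
Pdxp (5′ end free, chr15:78913669-78913918, plus strand): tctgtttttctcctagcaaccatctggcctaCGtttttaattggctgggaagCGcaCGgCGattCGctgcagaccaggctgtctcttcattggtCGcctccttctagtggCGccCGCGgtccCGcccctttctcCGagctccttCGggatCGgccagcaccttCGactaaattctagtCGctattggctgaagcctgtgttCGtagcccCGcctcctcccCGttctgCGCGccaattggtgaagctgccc
Cdh22 (5′ end in a site, chr2:165234854-165235103, minus strand): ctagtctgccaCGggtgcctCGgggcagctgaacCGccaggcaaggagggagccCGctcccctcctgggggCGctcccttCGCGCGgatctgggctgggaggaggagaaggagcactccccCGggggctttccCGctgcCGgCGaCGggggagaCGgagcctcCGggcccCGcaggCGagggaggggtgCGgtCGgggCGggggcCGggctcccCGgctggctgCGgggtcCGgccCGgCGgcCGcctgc
Ncoa3 (5′ end free, chr2:165992518-165992635, plus strand): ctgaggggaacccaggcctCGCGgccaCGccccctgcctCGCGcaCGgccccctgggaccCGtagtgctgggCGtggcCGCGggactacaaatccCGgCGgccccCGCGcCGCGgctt

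The covered promoters of Cdh22 and Elfn2 held 27 and 25 CpG dinucleotides in these 250 bp. The free promoters of Pdxp and Afap1 held 20 and 16, and that of Ncoa3 held 16 in its shorter stretch. The median over 21938 protein-coding genes was 8. At least as many CpG as at Cdh22 were found before 8.75% of all genes, as many as at Elfn2 before 11.2%, as many as at Pdxp before 20% and as many as at Afap1 before 29.4%. All 5 promoters lay above the median gene, but they were picked among the CpG-rich promoters, so this follows from the choice. They were also picked by their sites and were not tested as groups.

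Sites covered 53.2% of the chromosome 5 window, 51.2% of the chromosome 15 window and 49.2% of the chromosome 2 window. Just outside the choice were chr4:45000001-46000000 with 45.8%, chr12:112000001-113000000 with 45.7% and chr5:37000001-38000000 with 44.9%. The median of the 2397 autosomal windows was 2.53%. The 3 windows made up 0.122% of the autosomal length and 0.978% of the covered autosomal length. In number of sites they were less extreme, with rank 264 for the windows on chromosomes 5 and 15 and rank 175 for that on chromosome 2.

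Sequence and gene content were not used in the choice. The GC content of the windows was 50.9% (chromosome 5), 51.4% (chromosome 15) and 49.8% (chromosome 2), against a median of 41.7%, with ranks 16, 9 and 43. The share of bases that the reference masks as repeats was 16.2%, the lowest of all 2397 windows, on chromosome 5. It was 19.6% on chromosome 15 and 26.0% on chromosome 2, against a median of 31.7%. The windows on chromosomes 5, 15 and 2 held 12, 28 and 15 protein-coding 5′ ends against a median of 5. Of these promoters 6, 9 and 8 were CpG-rich, together 23 of 55, beside 9738 of 21938 over all protein-coding genes. CpG-rich stands for 50% GC or more and an observed to expected CpG ratio from 0.6 upwards. Both are taken over 500 bp on either side of the 5′ end. Over the whole windows this ratio was 0.186, 0.217 and 0.248, against a median of 0.184, with ranks 1155, 571 and 136. These are descriptions of 3 windows out of 2397, and the part of base composition in the calls was not tested.

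**Figure D1:**
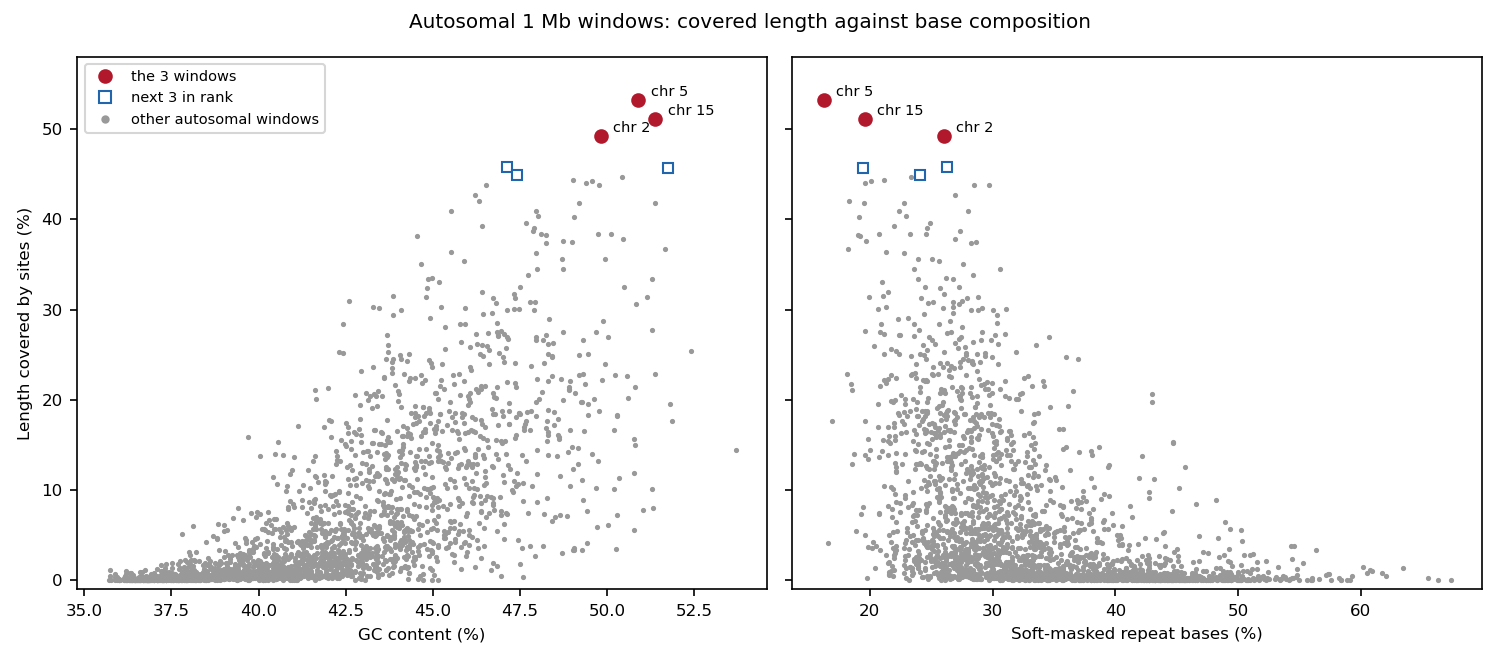
Each point is an autosomal window of 1 Mb, with the percent of its length under H3K27me3 sites on the vertical axis against its GC content (left, percent) and its share of repeat-masked bases (right, percent). The 3 windows, red, lie at 49.2 to 53.2% covered, with a GC content of 49.8 to 51.4% and 16.2 to 26.0% repeats, and the next 3 in rank are blue squares.

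The cover stopped near the window borders in part. Around the chromosome 5 window, the Mb before had 3.66% and the Mb after 13.9% of its length under sites. The neighbours of the chromosome 15 window had 20.4% and 22.7%, and those of the chromosome 2 window 25.7% and 19.8%. When the windows were moved by 500 kb towards higher positions, their cover was 16.8%, 30.5% and 21.5% on chromosomes 5, 15 and 2. Moved towards lower positions it was 38.5%, 50.0% and 51.1%, so that the chromosome 2 window would have been more covered there.

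Wide sites made up most of the cover, as sites wider than 5 kb held 70.6%, 69.3% and 65.5% of the summed width on chromosomes 5, 15 and 2. The median width of a site was 1397 bp on chromosome 5, 1343 bp on chromosome 15 and 1321 bp on chromosome 2, whereas it was 460 bp over all autosomes. Of the 451 sites 41 were wider than 10 kb, or 9.09%, compared with 0.995% of autosomal sites. Only 19 sites, or 4.21%, had the smallest width in the list, 200 bp, compared with 12.4%. Wide sites go with the choice of the windows by their cover, so nothing is read from the distance to the autosomal values. The widest site of the chromosome 2 window measured 54.8 kb and lay over the 5′ end of Cdh22, a cadherin of nervous tissue. The widest on chromosome 5 measured 49.4 kb and held the whole of Hmx1, a homeobox gene of eye, ear and sensory ganglia. On chromosome 15 the widest measured 25207 bp and overlapped no protein-coding gene, next to the 3′ end of Elfn2.

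Sites with gaps under 1 kb were joined to domains, which gave 45 domains on chromosome 5, 39 on chromosome 15 and 48 on chromosome 2. Their median lengths were 3859, 7375 and 4832 bp, whereas the median of all autosomal domains was 574 bp. Domains longer than 20 kb numbered 26 of 132, or 19.7%, compared with 1.62% of autosomal domains. They held most of the joined length of each window, with 70.5% on chromosome 5, 72.5% on chromosome 15 and 69.1% on chromosome 2. At the other end of the scale each window also held domains of 200 to 212 bp. Long domains, like wide sites, go with the choice of the windows, so nothing is read from the distance to the autosomal values.

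**Figure D2:**
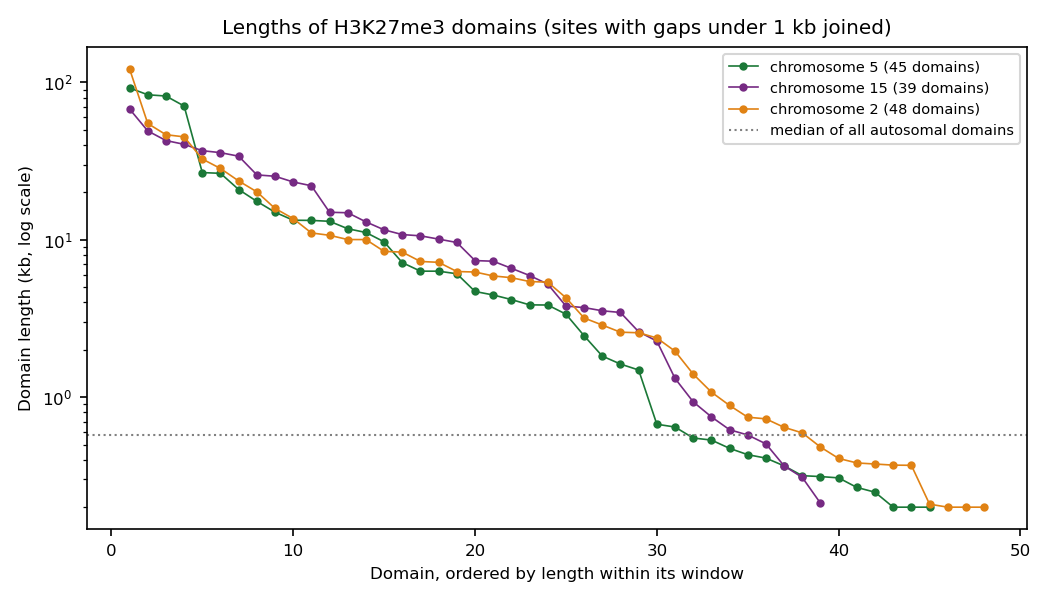
Domain length in kb on a log scale against the order of the domain by length, for the 45, 39 and 48 domains of the windows on chromosomes 5, 15 and 2. Each window has a few domains of 40 kb or more at the left and a tail that falls below the autosomal median of 574 bp (dotted line).

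The longest domains of the chromosome 5 window held few genes. The longest, at chr5:35445062-35537276, measured 92.2 kb and was 94.7% covered by its 13 sites. Its only protein-coding gene was Cpz, which encodes a secreted carboxypeptidase with a Frizzled-like domain. The next, of 83.4 kb at chr5:35258668-35342115, held Adra2c, the alpha-2C adrenergic receptor, and that of 81.9 kb at chr5:35354789-35436703 held Hmx1. A domain of 70.8 kb at chr5:35132139-35202929 overlapped no protein-coding gene. The fifth was far shorter, with 26.7 kb. With gaps under 5 kb joined, the stretch from chr5:35107171 to 35537276 became a single domain of 430.1 kb. It held 85 sites and 71.3% of the cover of the window, and Adra2c, Hmx1 and Cpz were its only protein-coding genes.

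On chromosome 15 the longest domain was shorter than those of the other windows, whereas the median domain was the longest of the 3. The longest, of 67.8 kb at chr15:78331061-78398812, ran from the body of Csf2rb, a cytokine receptor chain of myeloid cells, past the 5′ end of Tex33, a gene expressed in testis. Those of 49.2 kb (chr15:78011972-78061138) and 33975 bp (chr15:78085344-78119318) lay inside Cacng2, which encodes stargazin, a partner of AMPA receptors. Elfn2, a leucine-rich repeat protein of synapses, lay under domains of 42714, 23301 and 40416 bp, and a domain of 36.8 kb held Pvalb, the calcium-binding protein parvalbumin. With gaps under 5 kb joined, the longest was 222.9 kb, from chr15:78175883 to 78398812, with the 5′ ends of Pvalb, Ncf4, Csf2rb2, Csf2rb and Tex33.

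The chromosome 2 window held the longest domain of the 3 windows, 121.8 kb at chr2:165083937-165205752, with 20 sites. It covered most of 1700025C18Rik and the body of Cdh22 up to the 54.8 kb site over the Cdh22 5′ end. A domain of 46.5 kb held Cd40, a TNF receptor family member of B cells and antigen-presenting cells. Domains of 45.1 kb and 32.6 kb lay over the zinc finger gene Zfp663 and in the 3′ part of Slc13a3, a sodium-coupled carboxylate transporter. With gaps under 5 kb joined, Cd40, 1700025C18Rik and Cdh22 came to share a domain of 237.6 kb, with 44.9% of the cover of the window. By that joining the longest domain of the 3 windows lay on chromosome 5.

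**Figure D3:**
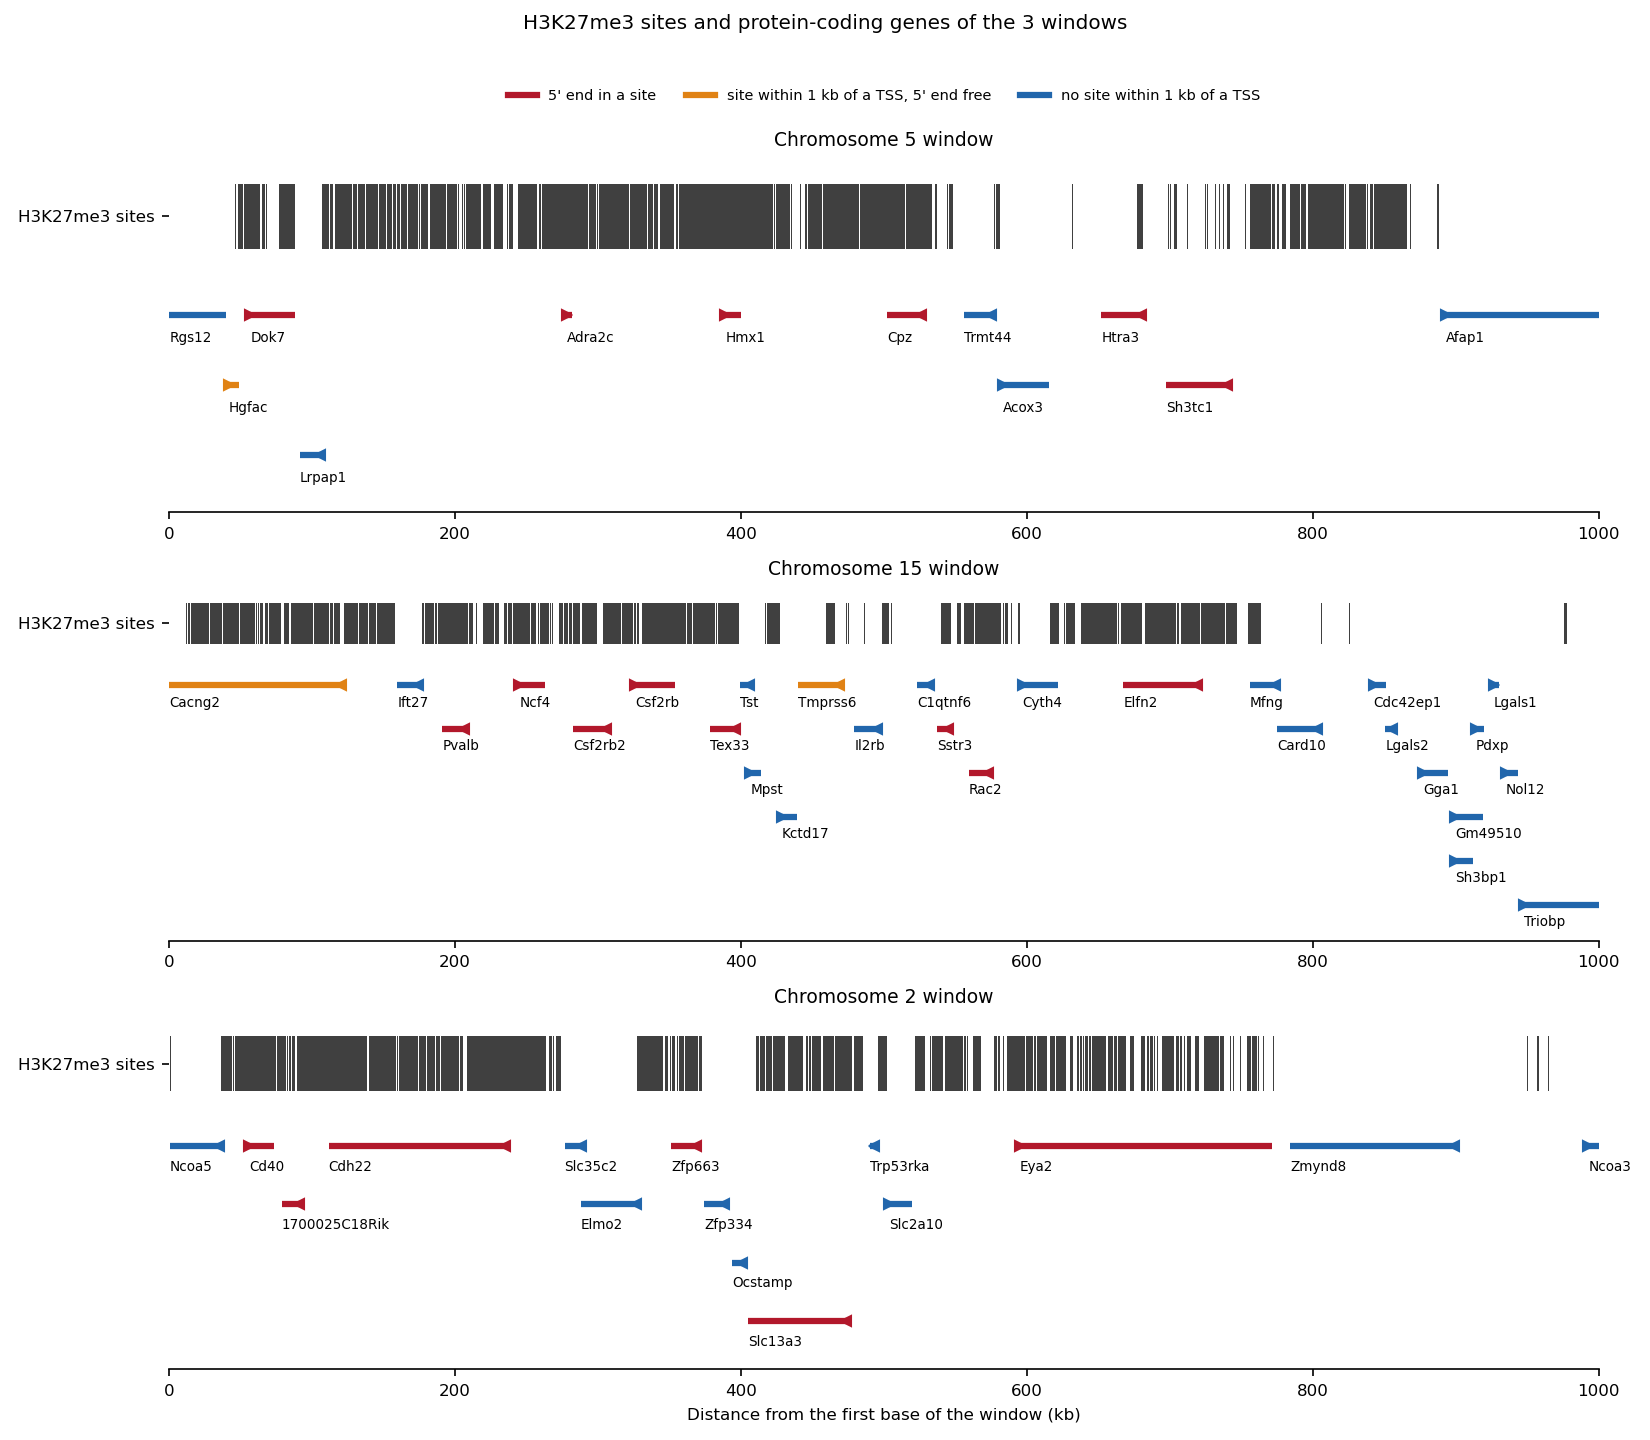
Map of the 3 windows in kb from their first base, with H3K27me3 sites as black blocks and protein-coding genes as bars with an arrowhead at the 5′ end. Of the 55 genes with the 5′ end in a window, 21 (red) have it in a site, 3 (orange) have a site only within 1 kb of a TSS and 31 (blue) have neither. Rgs12 is drawn although its 5′ end lies outside, and 1 of the 21 is not drawn.

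Gene by gene, the sites divided the windows into covered and spared genes with few between. The 5′ end lay in a site for 21 of 55 genes, or 38.2%, while the share over all 21938 protein-coding genes was 16.9%. It was 7 of 12 on chromosome 5, 8 of 28 on chromosome 15 and 6 of 15 on chromosome 2. A site within 1 kb of any annotated transcription start site (TSS) was found for 24 of 55 genes, with a background of 31.5%. The gene body was covered over at least 50% of its length in 20 of 56 genes (background 9.35%) and over less than 5% in 30 of 56 (background 74.5%). Only 6 genes lay between these limits. As the windows were chosen by their cover, nothing is read from the distance to the background.

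Promoter and body mostly went together. Of the 21 genes with a covered 5′ end 19 also had at least 50% of the body covered, a combination found for 46.5% of all genes with a covered 5′ end. Their median body cover was 87.5%. Of the 34 genes with a free 5′ end 29 had less than 5% of the body covered, and the median was 0%. The exceptions were few. Htra3, a secreted serine protease, and Sh3tc1, with SH3 and TPR domains, had a covered 5′ end with 9.49% and 22.4% of the body covered. Cacng2 alone had a free 5′ end and a mostly covered body, although its RefSeq start lay in a site.

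**Figure D4:**
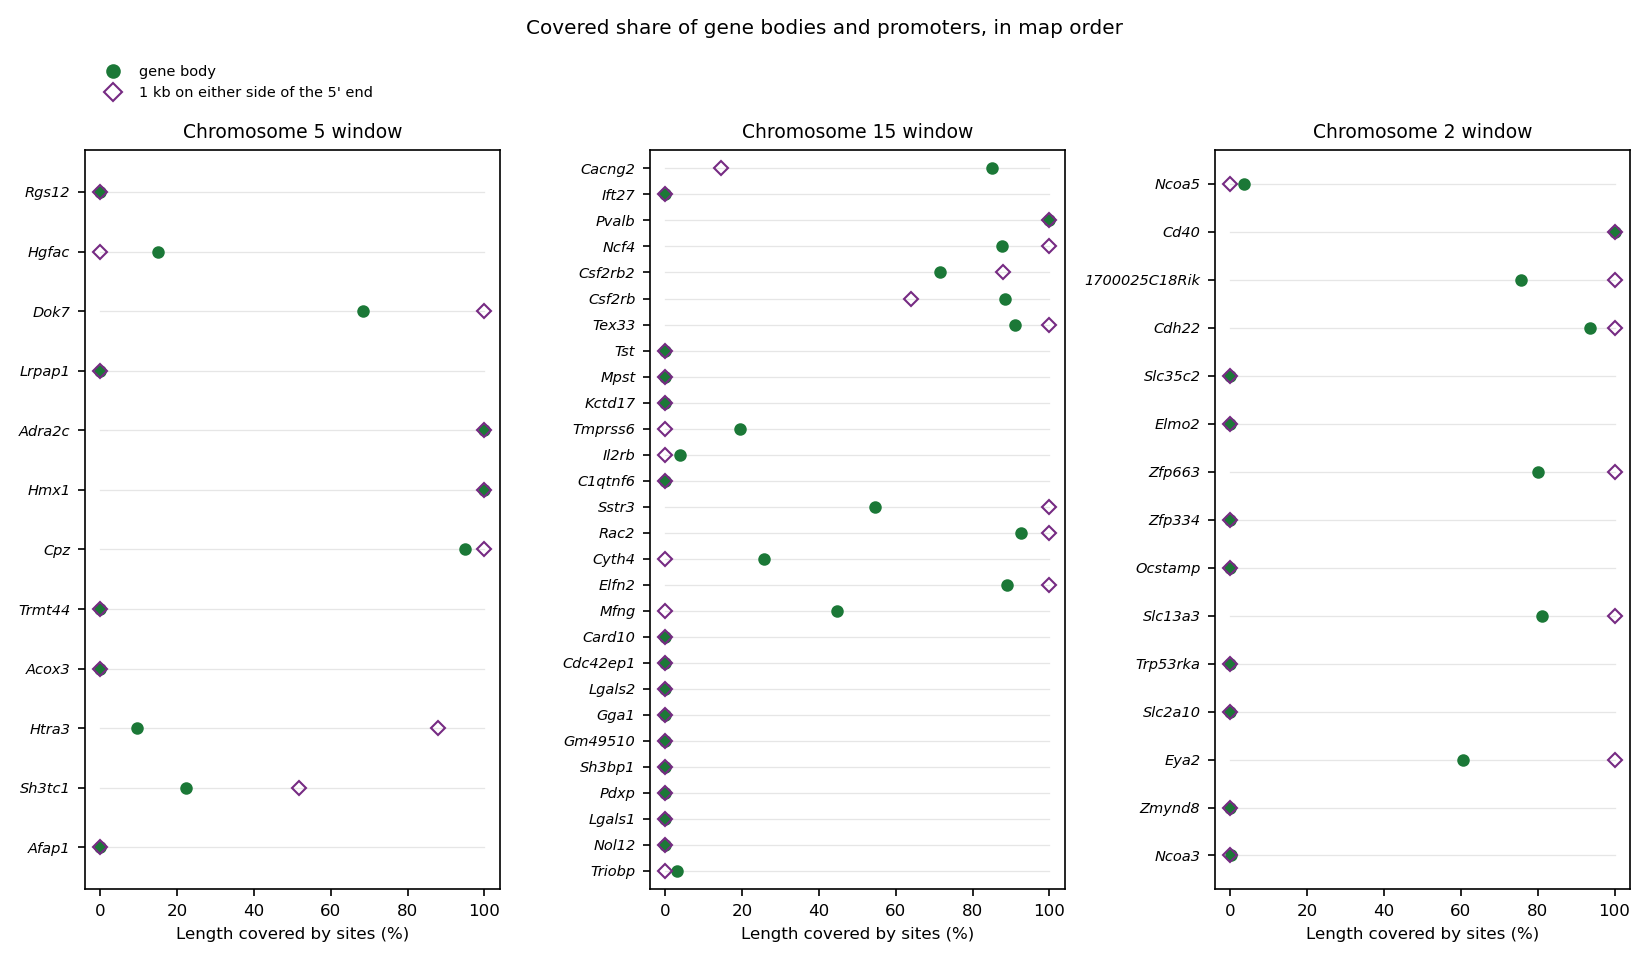
Percent of the length covered by sites for the gene body (filled circles) and for the 1 kb on either side of the 5′ end (open diamonds), for 55 of the 56 genes in map order. Most genes lie at 0% or above 50% in both measures, and Cacng2 combines 85.0% of the body with 14.5% of the promoter.

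In the chromosome 5 window 3 genes were covered over at least 95% of their length. Adra2c (chr5:35278319-35281763, plus strand) and Hmx1 (chr5:35389108-35399730, plus strand) each lay wholly within a single site, of 18.6 kb and 49.4 kb. Cpz (chr5:35502218-35525698, minus strand) was covered over 95.02% by 4 sites, and each of these genes had all its annotated TSSs in a site. Dok7, an adaptor of the muscle kinase MuSK at the neuromuscular junction, had a covered promoter and 68.5% of its 31.1 kb covered, with 4 of 5 TSSs in a site.

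Narrower cover was found at Htra3 and Sh3tc1. At Htra3 a single site of 3376 bp lay over the 5′ end and covered 4 of 6 TSSs, and the rest of the 27.8 kb gene was free. At Sh3tc1 13 sites of up to 2665 bp were spread over 42.8 kb, and 1 of 7 TSSs lay in a site. Hgfac, a serine protease made in liver, had its 5′ end 4762 bp from the nearest site, but 3 sites at its 3′ end covered 15.1% of the body and 1 of its 6 TSSs. This call rested on narrow sites, as it was lost without the sites narrower than 500 bp.

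The spared genes of the chromosome 5 window had no site in promoter or body. Among those with the 5′ end inside, these were Lrpap1, a chaperone of LDL receptor family proteins, the putative tRNA methyltransferase gene Trmt44, Acox3, an acyl-CoA oxidase of peroxisomes, and Afap1, an actin filament-associated protein. Each lay in a site-free stretch, of 19.0, 25.3, 48.8 and 167.1 kb, the last of which ran beyond the window and held all 110.6 kb of Afap1. Rgs12, a regulator of G protein signalling with its 5′ end in the Mb before, had no site over its 90.2 kb either. It shared a site-free stretch of 98.5 kb with the 5′ end of Hgfac.

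The chromosome 15 window began within Cacng2 (chr15:77991748-78120028, minus strand). Sites covered 85.0% of its 128.3 kb and left a gap around the single annotated TSS, with the next site 710 bp downstream and 2256 bp upstream. The covered stretch beyond this gap was a domain of 35780 bp. The RefSeq start of Cacng2, 748 bp from the 5′ end used here, lay in a site, so the free 5′ end depends on the annotation. With gaps under 5 kb joined, the Cacng2 5′ end fell in a domain, the only 5′ end that did so in addition to the 21. Ift27, an intraflagellar transport protein, followed without any site in a free stretch of 17.8 kb, and then Pvalb (chr15:78191114-78206400, minus strand) lay wholly within a site of 21.3 kb.

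Of the blood and immune list, 4 genes of the chromosome 15 window had a covered 5′ end. Ncf4, a subunit of the phagocyte NADPH oxidase, had 87.5% of its body and all 6 TSSs in sites. Rac2, a small GTPase of blood cells, had 92.6% covered with all 3 TSSs in sites. The cytokine receptor genes Csf2rb2 and Csf2rb had 71.6% and 88.3% of the body covered, with 3 of 4 and 5 of 5 TSSs in sites. Both receptor genes are close paralogues, so reads may match either copy, and how such reads were placed is not known. Tex33, between Csf2rb and the spared pair below, was covered over 91.1%.

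The other genes of this list in the window were free at the 5′ end, and not all of them act in blood cells. Il2rb, the interleukin receptor beta chain of lymphocytes, had 3.88% of its body covered by a site of 621 bp and its 5′ end 3116 bp from the nearest site. Cyth4, an ARF exchange factor of blood cells, had 25.8% covered, nearly all of it in the 3′ part. Card10, a scaffold protein of NF-kappaB signalling, had none. Tmprss6, a liver protease of iron regulation, had a free 5′ end but a site over 1 of its 6 TSSs, with 19.4% of the body covered.

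Among the remaining genes of the chromosome 15 window, Elfn2 (chr15:78667331-78718771, minus strand) had 89.0% of its body and all 4 TSSs covered. The somatostatin receptor gene Sstr3 had 54.5% covered with both TSSs in a site of 4622 bp. Its body cover fell under 50% without the sites narrower than 1 kb. Mfng, a fringe glycosyltransferase that modifies Notch, was covered over 44.6%, and all of this lay in the 3′ part while the 5′ end was 9483 bp from a site. The neighbouring sulfurtransferase genes Tst and Mpst shared a free stretch of 18.1 kb. Kctd17, a BTB domain protein, and C1qtnf6, a secreted C1q-related protein, had no site either.

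The high end of the chromosome 15 window was nearly free of sites. A stretch of 149.5 kb (chr15:78825961-78975477) held the 5′ ends of 9 genes, more than any other free stretch of the 3 windows. In map order these were Cdc42ep1, a Cdc42 effector, the galectin gene Lgals2, the Golgi adaptor gene Gga1, Gm49510, Sh3bp1, a GTPase-activating protein, the pyridoxal phosphatase gene Pdxp, the galectin gene Lgals1, the nucleolar protein gene Nol12 and Triobp, an actin-bundling protein. Only Triobp had any site in its body, 3 sites over 2.94% of 58.1 kb. The nearest sites to the Pdxp 5′ end were 61.6 kb downstream and 88.0 kb upstream.

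In the chromosome 2 window Cd40 (chr2:165055627-165072948, plus strand) lay wholly within a site of 24.6 kb, with all 6 TSSs covered. Next to it, 1700025C18Rik was covered over 75.6%. Cdh22 (chr2:165111507-165234853, minus strand) was covered over 93.6% of its 123.3 kb by 15 sites. Zfp663 had 80.0% and Slc13a3 81.2% of the body covered, with 4 of 4 and 2 of 4 TSSs in sites. Eya2, a transcriptional coactivator and phosphatase of organ development, was the longest gene, and 65 sites covered 60.5% of its 176.7 kb. Its widest site measured 10.0 kb and 5 of its 6 TSSs were in sites, so its cover was broken into more pieces than that of Cdh22.

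Between these covered genes of the chromosome 2 window lay spared genes. Slc35c2, a nucleotide sugar transporter family member, and Elmo2, an activator of Rac signalling, shared a free stretch of 53.6 kb. Zfp334, a further zinc finger gene next to Zfp663, and Ocstamp, a membrane protein of osteoclasts, shared one of 38.0 kb. The kinase gene Trp53rka and the glucose transporter gene Slc2a10 had free stretches of 10.7 and 19.3 kb. Zmynd8, a chromatin reader, had no site over its 114.9 kb, in a free stretch of 161.1 kb. Ncoa3 and Ncoa5, coactivators of nuclear receptors, had 0.248% and 3.66% of the body covered, by 1 and 3 sites of at most 605 bp.

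Grouped by role, the list of neuronal genes had the highest median body cover and that of broadly used genes the lowest. Of the neuronal and sensory receptors, channels and synapse proteins 8 overlapped a window. At least 50% of the body was covered in 7 of them, beside 9.35% of all protein-coding genes. Among the 7 were Adra2c, Cacng2, Pvalb, Sstr3, Elfn2 and Cdh22, and the exception was Rgs12. The median body cover of the list was 87.0%, beside 3.30% over all 56 genes and 0% over all protein-coding genes. The 5′ end was covered in 6 of the 7 that start in a window, beside 16.9% of all protein-coding genes, a share to be held beside the counts of the other lists too. Pvalb marks a class of interneurons but is also a muscle protein.

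Of 20 genes with broadly used cell functions 19 had no site within 1 kb of a TSS, beside 31.5% of all protein-coding genes that have one. The median body cover was 0%, as over all protein-coding genes. The exception was the zinc finger gene Zfp663, with 80.0% of the body covered. Among 7 developmental and signalling regulators 4 had a covered 5′ end, namely Dok7, Cpz, Htra3 and Eya2, and the median body cover was 44.6%. Among 10 blood and immune genes 4 had a covered 5′ end, namely Ncf4, Csf2rb2, Csf2rb and Rac2, and the median was 22.6%. This list also held the liver proteases Hgfac and Tmprss6. Of 4 genes of transport and metabolism Slc13a3 and Sh3tc1 were covered at the 5′ end. The lists had been drawn up with these windows in view, so the counts describe them and are no independent evidence. In no list were 7 genes, namely Hmx1, Cd40, Ncoa5, Tex33, 1700025C18Rik, Gm49510 and Trp53rka, although Hmx1 and Cd40, both wholly covered, are known as a developmental and an immune gene.

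Both classes of promoters were found in and outside sites. A site covered the 5′ end of 6 of 23 CpG-rich promoters (background 13.3%), among them those of Dok7, Hmx1, Elfn2, Cdh22 and Eya2. It covered 15 of 32 other promoters (background 19.9%). The difference between the classes was not tested. By window, 3 of 6 CpG-rich promoters were covered on chromosome 5, 1 of 9 on chromosome 15 and 2 of 8 on chromosome 2.

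Some free promoters lay close to a site. Of the 31 genes without a site at the promoter 11 had one within 3 kb of the 5′ end (background 12.1%). For all 11 of these the nearest site lay upstream (background 73.6%), and 8 had a CpG-rich promoter (background 55.5%). The distance upstream was 1052 bp at Elmo2, 1096 bp at Kctd17 and 1343 bp at Slc2a10. It was between 1405 and 1921 bp at Lrpap1, Ncoa5, Acox3, Cyth4, Ift27 and Trmt44, and it was 2782 bp at Card10 and 2836 bp at Trp53rka. The next site downstream was farther off in each case, from 5147 bp at Cyth4 to 52516 bp at Elmo2, with a median of 23.4 kb. For 9 of the 11 the gene ended before that site, so that its body had none (background 54.8%), with Cyth4 and Ncoa5 as the exceptions. The backgrounds of 55.5% and 54.8% include genes whose nearest site lies downstream, so they are not like for like. The limits of 1 and 3 kb are those of the choice of the 11 genes. Of the 11, only Ift27, Kctd17, Ncoa5 and Elmo2 lay beside a domain of 10 kb or more. The site beside Card10 was 366 bp wide. As the windows were chosen by their cover, a site near a free 5′ end is more likely there. Nothing is therefore read from the distance to these backgrounds.

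**Figure D5:**
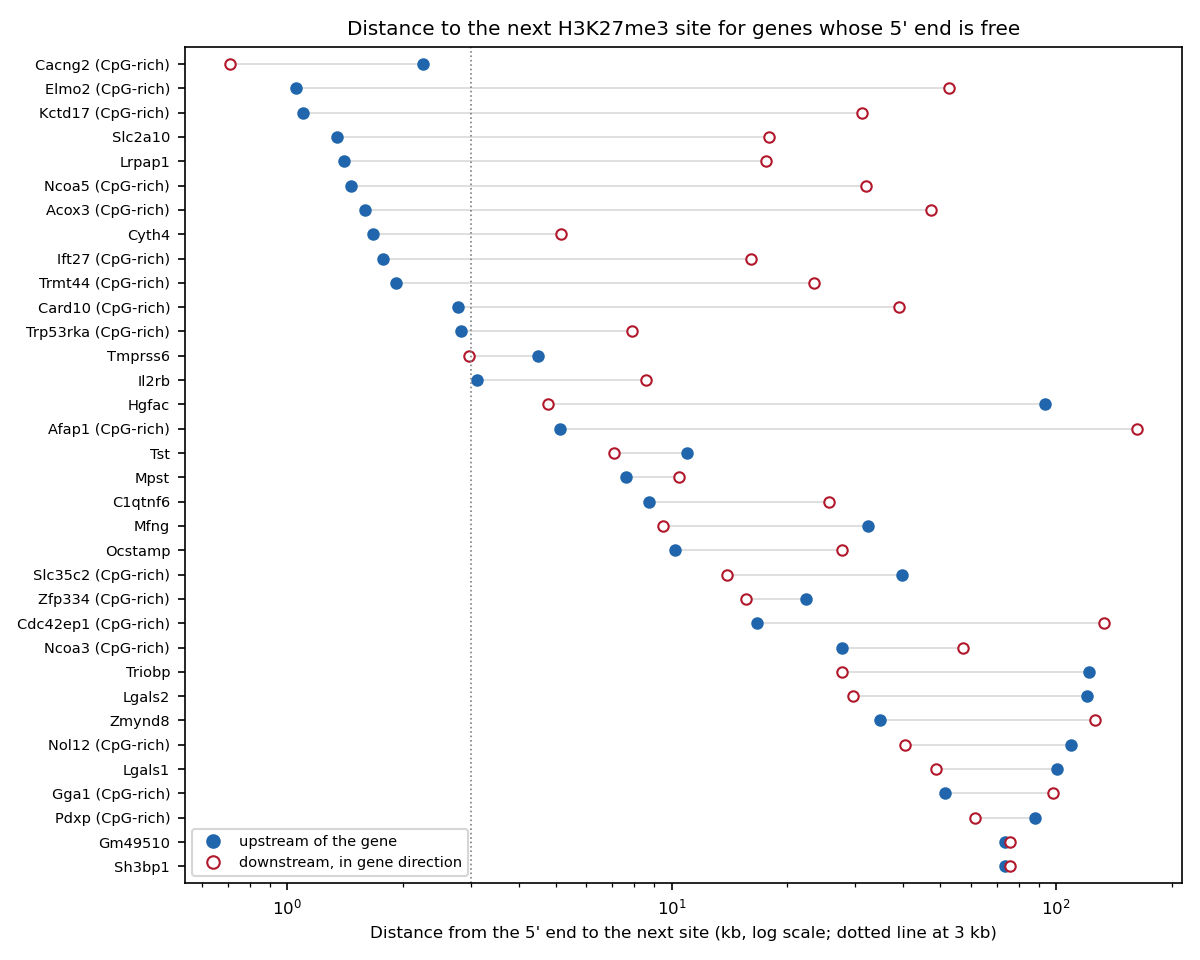
Distance in kb (log scale) from the 5′ end to the next site upstream (filled) and downstream in gene direction (open), for the 34 genes whose 5′ end is free. Left of the dotted line at 3 kb are upstream sites for 12 genes and downstream sites for Cacng2 and Tmprss6.

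The order of exons and introns differed between genes. Of the 15 genes with 50 to under 95% of the body covered 10 had a larger share of exon than of intron bases in sites (background 55.3%). Dok7 was among them with 85.7% and 65.7%, as was Csf2rb with 97.8% and 85.0%. The other 5 included long genes, but Cdh22, of 123.3 kb, was among the 10, with 99.8% of exon and 93.4% of intron bases. In Cacng2 sites covered 32.7% of the exon bases and 87.4% of the intron bases, and in Slc13a3 37.7% and 84.8%. In Eya2 the shares lay close together, with 59.9% and 60.5%. In Sstr3, a short gene, they were 27.69% and 89.1%. Split at the midpoint, Mfng was covered over 89.1% of the 3′ part and 0% of the 5′ part, and Cyth4 over 49.1% and 2.47%. Tmprss6 was covered over 38.9% of the 5′ part and 0% of the 3′ part, and Htra3 over 19.0% and 0%.

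The sequence outside protein-coding genes was covered over a larger share than the genes in each window. On chromosome 5 sites covered 34.1% of the protein-coding gene bodies and 71.3% of the remaining length. The shares were 48.4% and 54.9% on chromosome 15 and 48.3% and 51.0% on chromosome 2. Exons of any gene were covered over 30.1%, 34.9% and 25.3%. Genes other than protein-coding ones had their 5′ end in a site in 4 of 11, 5 of 15 and 4 of 12 cases on chromosomes 5, 15 and 2 (background 10.7%).

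Short gaps inside covered stretches held more repeat-masked bases than the sites. Gaps under 1 kb consisted of repeat-masked bases for 36.1% on chromosome 5, 43.2% on chromosome 15 and 41.9% on chromosome 2. In the sites the shares were 14.3%, 17.1% and 20.5%. In the gaps of 1 to under 10 kb they were 20.4%, 23.5% and 43.3%, so on chromosome 2 these gaps were as rich in repeats as the short ones. In the gaps of 10 kb or more that lie wholly inside a window they were 15.1%, 19.8% and 25.0%. Gaps across a window border, among them those with the 5′ ends of Afap1, Rgs12, Hgfac and Ncoa3, are not in these shares. The GC content of the short gaps was 46.6%, 44.5% and 45.5%, compared with 51.6%, 51.0% and 51.0% in the sites. Reads from repeats can map to several places, and the part of this in the short gaps was not tested.

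The next 3 windows in rank, on chromosomes 4, 12 and 5, are given for comparison. Sites covered the 5′ end of 15 of 42 genes there, beside 21 of 55 here, and at least 50% of the body in 15 of 44 genes, beside 20 of 56. Of CpG-rich promoters 7 of 23 were covered, beside 6 of 23. They held 183 domains, beside 132, with medians of 3883, 2085 and 4014 bp, beside 3859, 7375 and 4832 bp. Their longest domains measured 72.6, 73.1 and 43.1 kb, beside 92.2, 67.8 and 121.8 kb. These counts were not tested against each other, and the lengths overlap.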

How the data were processed

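H3K27me3 ChIP-seq was performed by the authors in 12 libraries, with 2 inputs. Reads were trimmed with Trim Galore, aligned with BWA to mm10 (GRCm38.p6) and filtered with samtools, replicates were merged, broad peaks were called with MACS and the sites of all samples were brought together. Versions and thresholds are not given in the sources used here. The deposited list holds the chromosome, start and end of each site and no other value. Starts were taken as 0-based and ends as excluded, since the smallest difference was 200 bp, and positions are printed 1-based.

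Sites were compared with GENCODE M21, an earlier release than that of the study, and with the RefSeq GRCm38.p6 sequence, using Python 3.11 and matplotlib 3.10.9. The 5′ end is the outermost annotated base of a gene. RefSeq starts were matched for 39 of 55 genes. Windows with at least 50% known bases were ranked. Columns of values without an assigned sample numbered 0.

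Every protein-coding gene overlapping a window could be named. Described in full were those under the 5 longest domains, those covered over at least 95%, those without a site in promoter or body, and those at gaps of 10 kb or more. Members, gene lists and measures were chosen with earlier results of these data known. 1 gene is counted in the totals and, like 1 promoter sequence, not reported here. The functions were tested on simulated data.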

Additional observations from a re-analysis of the deposited data

How the results depend on the processing

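No paired analysis was possible because sites of all libraries stand in 1 list without values, which also kept replicates from being left out in turn. A value was taken as moved when it changed by more than 1.5 times, which 18 of 76 recomputed values did. Moving the windows by 500 kb towards higher positions gave 16.8% covered on chromosome 5, 30.5% on chromosome 15 and 21.5% on chromosome 2. The number of protein-coding 5′ ends in the chromosome 2 window was then 5, and it was 40 with the window moved towards lower positions.

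By construction, domains depended on the joining distance. With gaps under 5 kb joined, there were 12 domains on chromosome 5, 14 on chromosome 15 and 14 on chromosome 2, and the longest measured 430106, 222930 and 237636 bp. With sites as listed, the numbers were 144, 145 and 163 and the longest measured 49358, 25207 and 54814 bp. On chromosome 15 the 145 include a site that starts before the window. Without sites narrower than 1 kb, the longest domain on chromosome 2 was 69550 bp.

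Genes with the 5′ end in a site numbered 21 or 22, and 23 had a TSS of any transcript in a site. The ranges were, for promoters with a site, 22 to 35 and, for bodies mostly covered, 15 to 21. The highest number of promoters was reached with 2 kb on either side of a TSS, and the lowest number of bodies with a limit of 75%. With RefSeq starts, an alternative chosen after seeing the data, 16 of 39 genes had a start in a site, beside 15 with GENCODE, and the difference was Cacng2. Repeat shares of short gaps were also recomputed, after seeing the data, for gaps under 500 bp, and were 34.5, 38.3 and 41.8% on chromosomes 5, 15 and 2. As depth is unknown, a missing call cannot be told apart from low coverage.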
